A study of Mus musculus with 3 samples.

Results

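The genes that encode the subunits of the mitochondrial respiratory chain and ATP synthase were followed, complex by complex, in bone marrow stromal cells exposed to 3 preparations of extracellular vesicles. Members were taken by symbol: protein-coding genes named Ndufa, Ndufb, Ndufc, Ndufs or Ndufv, Sdha to Sdhd, Uqcr, Cyc1, Cox4 to Cox8 with a subunit letter, and Atp5, together with the genes of the mitochondrial genome. The rule found 101 of the 27179 genes in the table, 88 of them nuclear and 13 mitochondrial. Of these, 88 had a mean of at least 50 normalised counts over the libraries (78 nuclear and 10 mitochondrial), the filter used below for all counts and medians. Ndufb1, whose symbol also meets the rule, was not matched to a row and was not analysed here.

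The respiratory chain passes electrons from NADH and succinate to oxygen through complexes I to IV of the inner mitochondrial membrane. Complexes I, III and IV pump protons as they do so, and complex V, the ATP synthase, lets the protons back through its membrane rotor to make ATP. Complexes I, III, IV and V are built from subunits of both the nuclear and the mitochondrial genome, whereas complex II is wholly nuclear, and several small subunits of complexes I and IV and of the ATP synthase exist as isoforms that differ between tissues or with oxygen supply.

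The vesicles came from bone marrow plasma of C57BL/6N mice aged 6 months, with 5 mice (2 male, 3 female) pooled for each preparation. The donors were CAGS-Snorkel mice crossed with Prx1-Cre (Prx1-EV), a driver active in early limb mesenchyme, or with Ocn-Cre (Ocn-EV), a driver active in mature osteoblasts and osteocytes, or were wild-type mice that served as the control donors (All-EV). As labelled, the wild-type donors carry no Snorkel transgene, yet an HA-antibody magnetic bead column was used in every group. The recipients in all groups were wild-type mouse bone marrow stromal cells kept in 3% O2 and exposed for 3 days, after which 1 mRNA library per group was sequenced as paired reads of 150 bases from 100 ng of RNA. With 1 library per group, no difference below has a replicate check, and no test between conditions can be made.

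The libraries differed little in depth, with 15558165 assigned reads for All-EV, 14233978 for Ocn-EV and 17269204 for Prx1-EV, and 1 read was worth 0.872 to 1.13 normalised counts. Intervals given in square brackets are exact 95% intervals of the ratio of 2 libraries and cover counting error only. Where 3 values of a gene follow each other, they are normalised counts in the order All-EV, Ocn-EV, Prx1-EV. The labelled cell type was checked against marker genes. Of 11 stromal markers, 9 passed the filter, and the list took 0.0808%, 0.503% and 0.330% of all reads. All 11 macrophage markers passed, with 1.34%, 0.950% and 0.823% of all reads. Lyz2, the macrophage lysozyme, stood at 140306, 51741 and 40548 normalised counts, with the most reads of its list in every library. The other macrophage markers did not all follow it: the list's median log2 ratio was 0.16 in Ocn-EV and 0.25 in Prx1-EV against All-EV, with 4 and 3 of the 11 at least 1.5-fold higher and 3 and 4 lower. Mertk, an engulfment receptor, had the highest ratio of them, at 866, 2194 and 2199. The stromal list had median log2 ratios of 1.12 and 0.78. Of its 9 markers at the filter, 7 and 6 were at least 1.5-fold higher, beside 13.8% and 12.8% of all genes, and 1 was lower in each. Col1a1, a collagen chain of stromal cells with the most reads of that list in every library, stood at 7861, 44981 and 30400. Nt5e went the other way, at 225, 118 and 124. The macrophage list thus took more reads than the stromal list in every library. The stromal share differed most between All-EV and the other libraries, which is also where the respiratory chain genes differed. The higher macrophage share of All-EV rested on Lyz2, whose reads numbered 123980, 49971 and 46480 beside list totals of 208200, 135243 and 142095. Without Lyz2, the macrophage share was not highest in All-EV. In bulk RNA, fewer cells of a type and less RNA per cell cannot be told apart, and the part of cell composition in the results below was not tested.

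The nuclear members stood lower in the Ocn-EV and Prx1-EV libraries than in All-EV. Their median log2 ratio was -0.48 in Ocn-EV against All-EV and -0.48 in Prx1-EV against All-EV, where all 11067 genes at the filter had medians of -0.02 and 0.00. At least 1.5-fold lower were 25 of the 78 nuclear members in Ocn-EV, beside 13.7% of all genes, and 30 of 78 in Prx1-EV, beside 12.8% of all genes. At least 1.5-fold higher were 1 and 2 members, beside 13.8% and 12.8% of all genes. At least 2-fold lower were 3 members in Ocn-EV (Cox6a2, Uqcrq and Atp5g2), beside 4.25% of all genes, and 2 in Prx1-EV (Uqcrq and Atp5e), beside 3.7%. Ndufa4l2 was the 1 member at least 2-fold higher in each, beside 6.34% and 5.2% of all genes. The ratio was below 0 for 75 members in Ocn-EV and for 73 in Prx1-EV, beside 51.3% and 50.0% of all genes. Of the 88 members of both genomes, 20 and 21 changed sign with equal library totals. With trends in transcript length and GC content removed, 26 and 28 did. Both comparisons share the All-EV library, so they are not separate evidence of 1 direction. Between Ocn-EV and Prx1-EV themselves the median was -0.01, and the interval held 0 for 63 of the 78 nuclear members, beside 64% of all genes. As a share of all reads, the nuclear members took 0.544% [0.541, 0.548], 0.477% [0.473, 0.481] and 0.468% [0.464, 0.471], highest in All-EV.

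The complexes differed in how far they stood from All-EV. Complex IV was the lowest, with medians of -0.69 (Ocn-EV) and -0.73 (Prx1-EV) over 12 nuclear subunits. Of these, 9 were at least 1.5-fold lower in each comparison, beside 13.7% and 12.8% of all genes. Complex III followed with -0.50 and -0.54 over 8 subunits, then complex I with -0.45 and -0.46 over 38 and complex V with -0.43 and -0.44 over 17. By their names, Ndufa4 and Ndufa4l2 were counted in complex I. Complex II, the succinate dehydrogenase, lay near the median of all genes with -0.05 and -0.04 over 3 subunits, and 0.21 and 0.18 with equal library totals. The ratios depended on the scaling: with the libraries set to equal totals, the median of all genes moved to 0.24 and 0.22, and the nuclear median to -0.22 and -0.25. Complex II also had the longest transcripts, with a median of 2900 bases beside 662.5 in complex IV, and length is taken up after the single complexes.

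**Figure D1:**
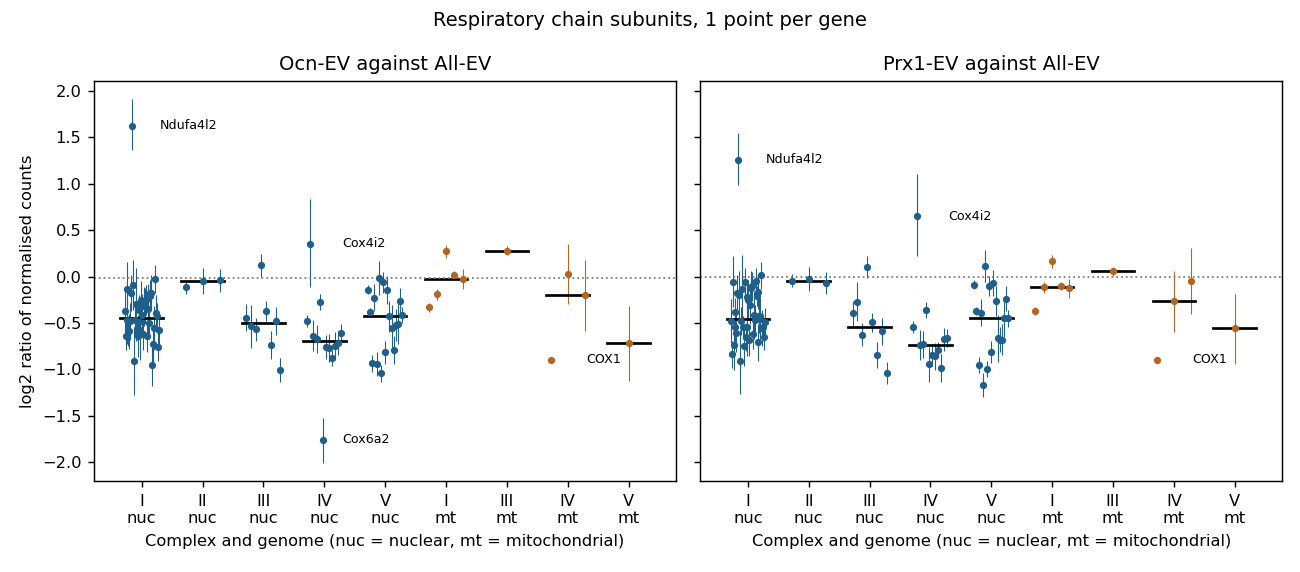
Log2 ratio of each nuclear and mitochondrial member at the filter, grouped by complex, for the Ocn-EV and the Prx1-EV library, each over All-EV. Each point is 1 gene, thin bars are exact 95% intervals for counting error, black lines are medians and the dotted line is the median of all genes. Most nuclear members lie below 0, complex II lies near 0, and Ndufa4l2 (1.63 and 1.26) lies far above the rest.

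Several mitochondrially encoded genes have near-identical nuclear copies, so reads from them can match more than 1 place in the genome. GENCODE vM21 lists 7 unprocessed pseudogenes on the minus strand of chromosome 1, from base 24611535 to 24616197 (GRCm38), that together copy a stretch from COX1 to ND4 with 2 mismatches in 4140 aligned bases. COX2 and its copy Gm28661 are identical over 681 bases, as are ATP6 and Gm10925 over 678 bases and COX3 and Gm28437 over 783 bases. ND3 and its copy Gm28438 differ at 1 base, T3C, counted from the start of each transcript, which stands in capitals here.
ND3: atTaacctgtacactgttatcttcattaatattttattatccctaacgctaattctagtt
Gm28438: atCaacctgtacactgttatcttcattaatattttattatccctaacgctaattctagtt
The copy of COX1, Gm29216, starts only at base 1063 of the COX1 transcript and carries 1 mismatch, A1066T. The next line gives COX1 from base 1033 to base 1092, 5′ to 3′, with the bases shared in position with the copy in capitals and the stretch that the copy lacks in lower case.
COX1: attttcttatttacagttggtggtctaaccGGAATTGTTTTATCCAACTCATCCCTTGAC

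Of all windows of 100 bases, 99.5% in COX2, 99.9% in COX3, 99.5% in ATP6, 97.6% in ND3 and 98.5% in ND4L also occur in another annotated transcript. The share is 60.8% in ND4, 30.8% in COX1 and 3.19% in ND2, and it is 0 in ND1, ND5, ND6, CYTB and ATP8. The genes with nearly all windows shared were also the mitochondrial genes with low levels per kilobase: COX2, COX3 and ATP6 had 250, 170 and 218 normalised counts per kilobase in All-EV, against 9236 for ND1, 6637 for CYTB and 85605 for COX1. The handling of reads with several matches is not stated in the labels, and the part of the nuclear copies in these levels was not tested. ATP8, which shares no window with an annotated transcript, was low as well, at 11.3, 12.4 and 5.23 normalised counts. Its gene lies after COX2 and runs into ATP6. The search covered annotated transcripts only, so the genome bases between the nuclear copies of COX2 and ATP6 were not compared with ATP8.

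COX1, the catalytic subunit of complex IV that holds the oxygen-reducing centre (mitochondrial genome, bases 5328 to 6872), was the most abundant member. It had 132260 normalised counts with All-EV, 70984 with Ocn-EV and 71106 with Prx1-EV. The Ocn-EV and Prx1-EV libraries lay close together, at 53.7% and 53.8% of All-EV, a log2 ratio of -0.90 [-0.91, -0.88] in both. COX1 alone took 0.751%, 0.482% and 0.472% of all reads. Without it, the remaining mitochondrial genes took 0.203%, 0.242% and 0.221% of all reads, lowest in All-EV. This order holds for shares of reads only: in normalised counts their total was not lowest in All-EV, so the direction depended on the scaling.

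The other mitochondrial genes were split: ND1, ND2 and ATP6 were highest in All-EV, as COX1 was, with intervals below 0 in both comparisons, and ND4 and CYTB were lowest there. The ND genes encode the membrane arm of complex I. ND1 stood at 8838, 7019 and 6830 normalised counts, highest in All-EV. ND2 stood at 4815, 4219 and 4445, also highest in All-EV. ND4, most of whose length is shared with its nuclear copy, was lowest in All-EV with 3252, against 3929 and 3641. ND5 was close in all libraries with 9170, 9252 and 8575, as was ND6, the only protein gene on the light strand, with 1612, 1585 and 1479. CYTB, the cytochrome b of complex III, stood at 7592, 9216 and 7889, higher in Ocn-EV by a log2 ratio of 0.28 [0.23, 0.33]. Of the genes covered by the copies, COX2 had 171, 174 and 142 and COX3 134, 116 and 129, and their intervals against All-EV held 0. ATP6, a membrane subunit of complex V beside the rotor, had 148, 90.1 and 100, with a log2 ratio of -0.71 [-1.13, -0.32] in Ocn-EV. ND3 (14.7, 8.28, 20.1) and ND4L (17.0, 20.7, 19.2) did not pass the filter. Over the 10 mitochondrial genes at the filter the medians were -0.11 and -0.12, and 0.15 and 0.11 with equal library totals, so their direction depended on the scaling. At least 1.5-fold lower among these 10 were COX1 and ATP6 in Ocn-EV, beside 13.7% of all genes, and COX1 in Prx1-EV, beside 12.8%. With 10 genes, these counts are not set apart from those shares.

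**Figure D2:**
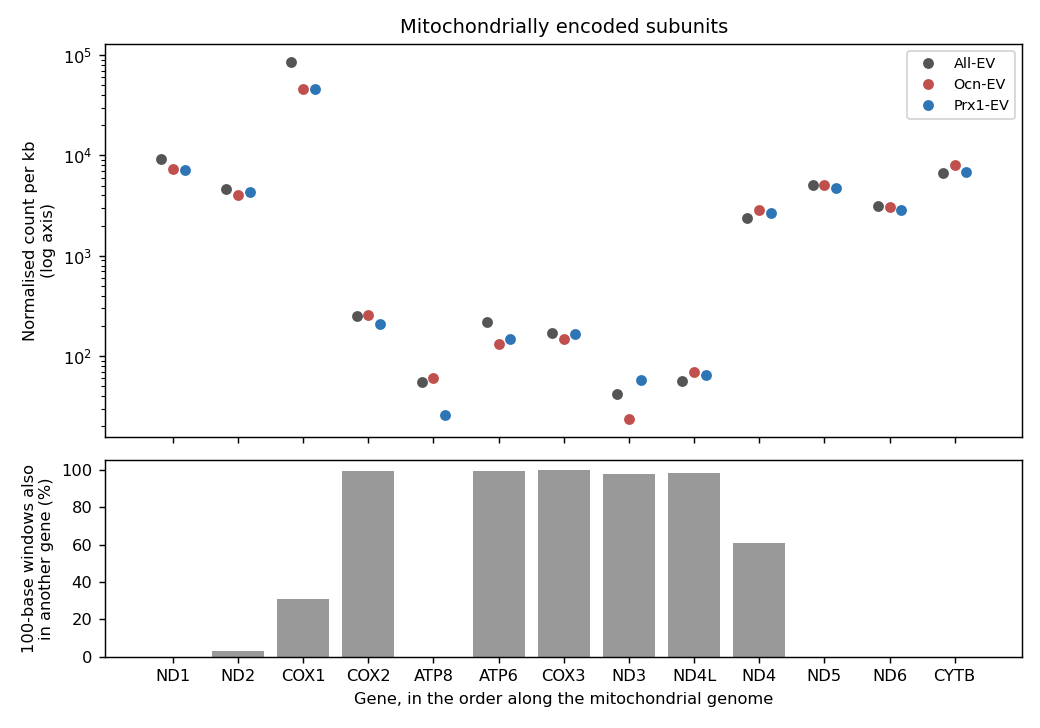
Normalised counts per kilobase of the mitochondrial genes in the 3 libraries, on a log axis, with 1 point per gene and library, above the percentage of each gene's 100-base windows that also occur in another gene (bars). COX1 lies at 85605, 45944 and 46023 per kilobase, and COX2, COX3 and ATP6 lie more than an order of magnitude below ND1 and CYTB.

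In complex I, the core subunits, which carry the flavin and the iron-sulfur clusters, lay closer to 0 than the accessory subunits around them, but this order turned when the trend with transcript length and GC content was removed. The core medians were then -0.11 and -0.13 and the accessory medians -0.074 and -0.014. Core transcripts had a median of 1623 bases and accessory ones 704. The 7 nuclear core subunits had medians of -0.20 and -0.21. In each comparison 1 of the 7, Ndufv2, was at least 1.5-fold lower, beside 13.7% and 12.8% of all genes. With 7 genes, this count is not set apart from those shares. Ndufs7, which holds the last cluster before ubiquinone, stood at 797, 781 and 804 normalised counts. Ndufs1 and Ndufs3 had log2 ratios of -0.18 and -0.17 in Ocn-EV. Ndufv1, the flavin subunit, had -0.42 and -0.54, and Ndufs8 -0.39 and -0.55. Ndufv2, an iron-sulfur subunit of the NADH-binding end, stood at 1056, 625 and 671, a log2 ratio of -0.75 [-0.91, -0.61] and -0.65 [-0.79, -0.52].

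The 31 accessory subunits had medians of -0.48 and -0.46, with 8 and 9 at least 1.5-fold lower, beside 13.7% and 12.8% of all genes. Other short transcripts were also lower more often than all genes, as given with transcript length below. Ndufs4, a late-joining subunit whose loss impairs complex I in mice and patients, stood at 521, 268 and 318 normalised counts. It was highest in All-EV and lowest in Ocn-EV, with log2 ratios of -0.95 [-1.18, -0.73] and -0.71 [-0.91, -0.51]. Ndufa6 stood at 195, 104 and 103, and it was the lowest of complex I in Prx1-EV with -0.91 [-1.27, -0.57]. Ndufa10, Ndufab1 (the mitochondrial acyl carrier protein), Ndufb5 and Ndufb9 were at least 1.5-fold lower in both comparisons, with log2 ratios from -0.83 to -0.62. Ndufs5 (-0.73) and Ndufa2 (-0.59) passed that fold in Ocn-EV, and Ndufa12 (-0.74), Ndufb11 (-0.65) and Ndufa3 (-0.61) in Prx1-EV. Ndufa7 had the highest level of the nuclear complex I genes, with 1640, 1184 and 1175 normalised counts per kilobase. Ndufb4b and Ndufb4c were below the filter, and all windows of Ndufb4c also occur in another transcript.

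Ndufa4l2 went the other way. It encodes an NDUFA4-like protein known as a target of the hypoxia-inducible factor HIF-1, and all libraries came from cells in low oxygen. It lies on chromosome 10, bases 127509274 to 127517154. Its level was 163 with All-EV, 505 with Ocn-EV and 391 with Prx1-EV. The log2 ratio was 1.63 [1.36, 1.91] in Ocn-EV and 1.26 [0.99, 1.54] in Prx1-EV, the highest of all nuclear members at the filter in both. Its paralog Ndufa4, a subunit found with complex IV although named for complex I, stood at 500, 442 and 444, and its intervals held 0. Of the reads of the pair, Ndufa4l2 took 24.6% [21.1, 28.3], 53.3% [50.0, 56.6] and 46.8% [43.6, 50.0], lowest in All-EV. Per kilobase these shares were 13.6%, 35.6% and 29.9%, with the same order of libraries. The gene overlaps Shmt2 by 32 bases, and Shmt2 stood at 828, 733 and 797. Hif1a itself had 2012, 1854 and 1828 normalised counts.

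Complex II oxidises succinate and feeds the same ubiquinone pool. Sdha, its flavoprotein, stood at 3444, 3189 and 3345 normalised counts. Sdhb, the iron-sulfur subunit, stood at 953, 922 and 937, and Sdhc, a membrane anchor, at 1169, 1139 and 1111. No ratio of these 3 genes went beyond -0.11, and only the interval of Sdha in Ocn-EV [-0.18, -0.04] left out 0. Sdhd, the other anchor, was listed at 9.05, 4.14 and 13.96, although no 100-base window of it occurs in another gene and no annotated gene overlaps it. The cause of this low listing was not tested.

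In complex III, which passes electrons from ubiquinol to cytochrome c, the small subunit Uqcrq had the lowest ratios. Uqcrq (chromosome 11, bases 53427922 to 53430831), a membrane subunit beside cytochrome b, had 1686 normalised counts with All-EV, 840 with Ocn-EV and 819 with Prx1-EV. Its log2 ratios were -1.005 [-1.13, -0.88] and -1.04 [-1.16, -0.92], and the other libraries held 49.8% and 48.6% of the All-EV level. Uqcrfs1, the Rieske iron-sulfur protein, stood at 1080, 647 and 602, a log2 ratio of -0.74 [-0.89, -0.59] in Ocn-EV. Cyc1, cytochrome c1, was less far apart with 969, 713 and 735. The 2 core proteins parted: Uqcrc1 was slightly higher in the other libraries than in All-EV (1149, 1249 and 1231) with intervals that held 0, whereas Uqcrc2 stood at 1887, 1460 and 1340. Uqcrb (-0.63) and Uqcrh (-0.59) passed the 1.5-fold mark in Prx1-EV, although Uqcrb turned to 0.013 when the length trend was removed with the longest transcripts. Uqcr11, a small subunit of the complex, was listed at 0 in all libraries, although no 100-base window of it occurs in another gene and no annotated gene overlaps it. The cause of this listing was not tested.

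Complex IV reduces oxygen, and its nuclear subunits surround the catalytic core made by the mitochondrial genome. Cox4i1, the general form of the largest nuclear subunit, stood at 4719, 3393 and 3246 normalised counts, with log2 ratios of -0.48 [-0.54, -0.41] and -0.54 [-0.60, -0.48]. Per kilobase it had the highest level of the nuclear complex IV genes (6334, 4555 and 4357). Cox5a stood at 824, 530 and 495 and Cox5b at 1050, 660 and 632, both highest in All-EV.

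The remaining general small subunits were also highest in All-EV. Cox7a2l, known for joining complexes III and IV into supercomplexes, stood at 3200, 1743 and 1853, a log2 ratio of -0.88 [-0.96, -0.79] in Ocn-EV. Cox7b was the lowest of the complex in Prx1-EV, with 1017, 607 and 513. Cox6b1, Cox6c, Cox7c and Cox8a had log2 ratios from -0.86 to -0.61 over both comparisons. Cox6a1 was nearest to All-EV of the general isoforms, at -0.27 and -0.36.

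The tissue-restricted isoforms of complex IV did not all go one way. Cox6a2, the heart and skeletal muscle form of subunit 6a (chromosome 7, bases 128205435 to 128206366), had 658 normalised counts with All-EV, 194 with Ocn-EV and 341 with Prx1-EV. Its log2 ratios against All-EV were -1.76 [-2.01, -1.52] and -0.94 [-1.14, -0.76]. When the Ocn-EV library was set against the Prx1-EV library, it alone among members at the filter passed the 1.5-fold mark, at -0.81 [-1.08, -0.56], where 2.31% of all genes were 1.5-fold higher and 1.32% lower. No member at the filter was 2-fold apart between them, beside 0.343% of all genes higher and 0.217% lower. Its share of the reads of Cox6a1 and Cox6a2 was 21.5%, 8.88% and 15.4%. Of the skeletal muscle markers, Myog and Myh1 were at 0 in all libraries, and Ckm was below the filter at 0, 2.07 and 0.872. Only Acta1 passed the filter, at 276, 497 and 616. The source of the Cox6a2 reads was not tested. Cox6a2 overlaps Itgad by 70 bases, and Itgad had 2.26, 3.11 and 9.60 normalised counts.

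Cox4i2, the lung form of subunit 4 that is known to be raised in low oxygen, stood at 75.8, 97.3 and 120 normalised counts. It was lowest in All-EV, with log2 ratios of 0.36 [-0.11, 0.83] and 0.65 [0.22, 1.10], so the Ocn-EV interval held 0. Its share of the Cox4 reads was 1.58%, 2.79% and 3.55%. The gene lies within a span that overlaps Bcl2l1, which stood at 2166, 1803 and 2027. Cox7a1, the muscle form of subunit 7a, had 19.2, 39.3 and 43.6, and Cox6b2, the testis form of subunit 6b, had 9.05, 26.9 and 11.3, all below the filter. Cox7a2, the general form, was listed at 4.53, 2.07 and 3.49, for a cause that was not tested, so the 7a share of Cox7a1 rests on few reads and is not compared. Cox7b2, Cox8b and Cox8c were at 0 in all libraries.

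**Figure D3:**
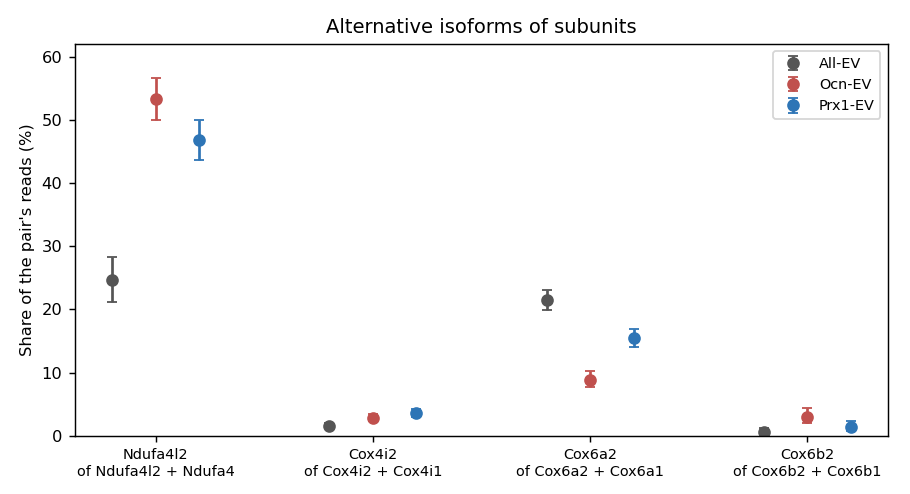
Share of an isoform in the reads of its pair (percent, with exact 95% intervals for counting error) in the 3 libraries. Ndufa4l2 (24.6%, 53.3% and 46.8%) and Cox4i2 (1.58%, 2.79% and 3.55%) are lowest in All-EV, and Cox6a2 (21.5%, 8.88% and 15.4%) is highest there. Cox6b2, below the filter with 8, 26 and 13 reads, is also lowest in All-EV, but its interval there overlaps that of Prx1-EV.

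Complex V joins a catalytic head (F1) to a membrane rotor. In the head, the catalytic subunit Atp5b stood at 10392, 7973 and 8028 normalised counts and its non-catalytic partner Atp5a1 at 6821, 6189 and 6422. Of the central stalk, Atp5c1 (gamma subunit) stood at 3020, 1583 and 1565, and Atp5e (epsilon subunit) at 1582, 822 and 705. Their log2 ratios were -0.93 [-1.02, -0.84] and -0.95 [-1.04, -0.86] for Atp5c1, and -0.94 [-1.07, -0.82] and -1.17 [-1.29, -1.04] for Atp5e, the lowest nuclear member in Prx1-EV. Atp5d (delta subunit) was less far apart with 878, 751 and 670.

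Atp5g1, Atp5g2 and Atp5g3 encode the same mature c subunit of the rotor ring, and only Atp5g2 stood apart from All-EV. Atp5g2 had 3126 normalised counts with All-EV, 1519 with Ocn-EV and 1572 with Prx1-EV, a log2 ratio of -1.04 [-1.13, -0.95] and -0.99 [-1.08, -0.91]. Atp5g1 stood at 535, 531 and 578 and Atp5g3 at 1472, 1411 and 1371, with intervals that held 0. Atp5g1 took 14.6% of the reads of Atp5g1 and Atp5g2 with All-EV, 25.9% with Ocn-EV and 26.9% with Prx1-EV. Atp5g3 took 32.0%, 48.2% and 46.6% of its reads with Atp5g2. All 100-base windows of Atp5g2 and 57.3% of those of Atp5g1 also occur in another annotated transcript, and the part of such copies in these values was not tested. Atp5g3 shares none.

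In the stator, which holds the head still, Atp5h stood at 1547, 878 and 884, with 44.4% of its windows in another transcript. Atp5pb, Atp5o and Atp5j had log2 ratios from -0.45 to -0.07 over both comparisons. The 5 other membrane subunits had medians of -0.52 and -0.66. Atp5l (-0.79 and -0.68) was at least 1.5-fold lower in both comparisons, and Atp5md (-0.68) and Atp5k (-0.66) in Prx1-EV, where Atp5k turned to 0.040 when the length trend was removed with the longest transcripts. Windows shared with another transcript made up 69.0% of Atp5l.

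Between the Ocn-EV and Prx1-EV libraries, most members differed by less than the counting error. The interval lay below 0 for 9 of the 78 nuclear members at the filter and above 0 for 6, beside 20.3% and 15.8% of all genes, which is not more often than other genes. Ndufb10, an accessory subunit of the membrane arm of complex I, stood at 732, 568 and 704, so that Ocn-EV was below Prx1-EV by a log2 ratio of -0.31 [-0.47, -0.15]. Ndufs5, another accessory subunit, stood at 526, 317 and 393, with -0.31 [-0.52, -0.10]. Ndufa4l2 was above, at 0.37 [0.18, 0.56], as were Cox7b at 0.24 [0.07, 0.41] and Atp5e at 0.22 [0.08, 0.37]. Among the mitochondrial genes, CYTB was higher in Ocn-EV than in Prx1-EV by 0.22 [0.18, 0.27], and the interval of COX1 [-0.02, 0.01] held 0.

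The promoters of nuclear members were searched for motifs, since nuclear respiratory factor 1 (NRF1) and GABP are known to bind many respiratory chain promoters. RefSeq promoters (GRCm38.p6, 250 bases before and 50 after each listed start) matched 62 of the 78 nuclear members. The letters GCGC, any 2 bases and GCGC again, which read the same on both strands, stood for NRF1 and were found in 18 of the 62 (29.0%), beside 16.0% of the 8843 genes tested that had a promoter and 6.997% of all 27025 genes in the promoter table. AAGATGGC for YY1 was in 10 (16.1%, beside 5.67% and 3.19%), CCGGAAG for the ETS family that includes GABP in 15 (24.2%, beside 21.3% and 9.93%), and the hypoxia element core ACGTG in 14 (22.6%, beside 30.2% and 21.8%), each searched on both strands. Members with the NRF1 letters had medians of -0.48 and -0.39, and members without them -0.48 and -0.51. A match is a description of the letters and not a measured site. The 250 bases upstream of 3 members at least 1.5-fold lower in both comparisons follow here, 5′ to 3′ on the gene's strand (minus in each case), with the matches in capitals. They were the members with the lowest ratios among those with 1 listed start and a match wholly upstream of it. In Ndufv2 the capitals hold 2 overlapping matches.
Atp5g2, chr15:102671048-102671297: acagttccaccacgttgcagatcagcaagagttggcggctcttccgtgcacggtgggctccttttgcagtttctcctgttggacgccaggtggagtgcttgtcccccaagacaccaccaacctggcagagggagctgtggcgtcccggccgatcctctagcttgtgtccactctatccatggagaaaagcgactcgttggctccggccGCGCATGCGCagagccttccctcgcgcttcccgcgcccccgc
Atp5h, chr11:115419920-115420169: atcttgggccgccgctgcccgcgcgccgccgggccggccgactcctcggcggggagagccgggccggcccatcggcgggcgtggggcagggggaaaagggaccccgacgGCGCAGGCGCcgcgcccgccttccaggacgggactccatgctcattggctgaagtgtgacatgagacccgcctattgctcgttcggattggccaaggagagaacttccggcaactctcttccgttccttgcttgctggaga
Ndufv2, chr17:66101560-66101809: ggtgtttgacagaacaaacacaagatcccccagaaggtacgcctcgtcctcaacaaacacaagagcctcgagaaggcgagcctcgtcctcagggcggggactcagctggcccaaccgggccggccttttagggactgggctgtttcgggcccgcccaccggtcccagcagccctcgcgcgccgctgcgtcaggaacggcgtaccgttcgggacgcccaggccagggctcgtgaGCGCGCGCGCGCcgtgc
Ndufa4l2, Cox4i2, Cox6a2 and Uqcrq had no promoter entry.

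Respiratory chain transcripts are short, and short transcripts of any kind stood lower in these comparisons. The median transcript of the nuclear members has 738.5 bases, beside 2860 bases over all genes with a length. Among transcripts under 700 bases, the 35 members had a median log2 ratio of -0.55 in Ocn-EV against All-EV and the 277 other genes -0.50. From 700 to 1000 bases the medians were -0.30 (17 members) and -0.32 (478 other genes). In these shorter classes 14 of 35 and 2 of 17 members were at least 1.5-fold lower, beside 46.6% and 29.5% of the others, so members were no more often lower there in Ocn-EV. In Prx1-EV these counts were 17 of 35 and 3 of 17, beside 45.1% and 29.5%. From 1000 to 2000 bases the members stood lower than the others, at -0.56 (21 members) against -0.16 (2395 other genes), and 8 of the 21 were at least 1.5-fold lower beside 19.1% of the others. At 2000 bases or more the medians were -0.14 (5 members) and 0.06 (7719 other genes). In Prx1-EV against All-EV the members' medians were -0.55, -0.24, -0.54 and -0.07 in the same order of lengths, and those of the others -0.53, -0.33, -0.16 and 0.08. The members under 1000 bases therefore lay near other genes of their length, and those from 1000 to 2000 bases lay below them. With the trend with length and GC content removed, the nuclear medians were -0.13 and -0.11, and 5 members were at least 1.5-fold lower in each comparison. The share of all genes at that fold was not taken under this removal, so this count has no background. Complex IV was then at -0.22 and -0.32, complex I at -0.10 and -0.02, complex II at -0.07 and -0.06, complex III at -0.10 and -0.21 and complex V at -0.13 and -0.09. Complex IV stayed the lowest under this removal and with equal totals. The part of transcript length in the result was not tested.

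**Figure D4:**
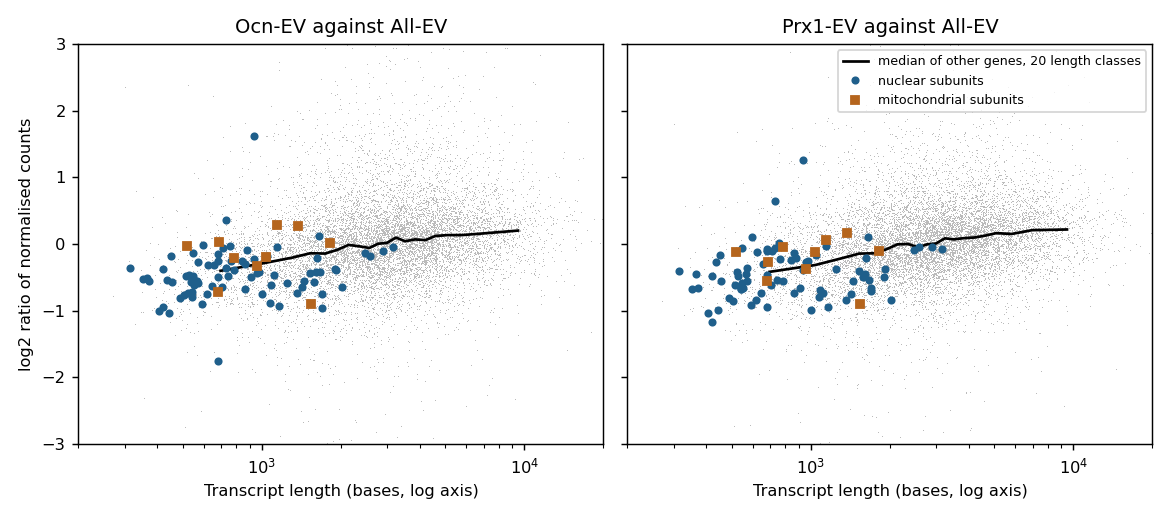
Log2 ratio against transcript length (bases, log axis) for nuclear (circles) and mitochondrial (squares) members in both comparisons with All-EV, over all other genes at the filter (grey dots, with the median by length class as a line). Spearman's rho over genes, which are not replicates, was 0.24 and 0.22 for the 78 nuclear members and 0.27 and 0.30 for all genes.

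By unadjusted medians, the genes that assemble and supply the complexes lay nearer to 0 than the subunits, with exceptions. Transcript length was not taken into account for the lists from here on. Their counts at 1.5-fold stand beside 13.7% (Ocn-EV) and 12.8% (Prx1-EV) of all genes lower, and 13.8% and 12.8% higher. The 14 complex I assembly factors at the filter had medians of 0.03 and 0.03, with 1 at least 1.5-fold lower in each comparison, the iron-sulfur carrier Nubpl (286, 133 and 152), and Tmem186 highest (153, 222 and 227). The 4 complex II factors had -0.65 and -0.08, with 2 and 0 lower. Sdhaf1, the lowest in Ocn-EV, stood at 149, 84.9 and 147. The 5 complex III factors had -0.41 and -0.39 with none at that fold, and the 21 complex IV factors had -0.21 and -0.27 with 2 and 2 lower, Surf1 (522, 309 and 374) being the lowest in Ocn-EV. The 3 ATP synthase factors had -0.14 and 0.02. Tmem70, a c-ring assembly factor, stood at 429, 246 and 336 and was the 1 gene lower in Ocn-EV.

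Among 12 genes for cytochrome c and ubiquinone synthesis, the medians were -0.13 and -0.15, with 5 and 2 lower. Cycs, cytochrome c, stood at 1015, 653 and 690, a log2 ratio of -0.63 [-0.78, -0.49] in Ocn-EV. The 12 genes of mitochondrial DNA upkeep and transcription had medians of -0.24 and -0.18, with 1 lower in each comparison and Polrmt, the mitochondrial RNA polymerase, higher in Ocn-EV (237, 364 and 286). Tfam, which packages and activates mitochondrial DNA, was at 419, 400 and 385. None of the 7 nuclear regulators at the filter was 1.5-fold apart from All-EV, beside 27.5% and 25.5% of all genes. A list of 7 genes is too short to be set apart from those shares. Nrf1 stood at 572, 494 and 509 and Ppargc1b at 79.2, 56.9 and 87.2, and Ppargc1a, a coactivator of mitochondrial genes, was below the filter at 19.2, 13.5 and 16.6.

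Outside the chain, 16 pyruvate dehydrogenase and citric acid cycle genes had medians of -0.28 and -0.27, with 2 and 3 lower and none higher. Idh3b, a subunit of NAD-dependent isocitrate dehydrogenase, was the lowest in Ocn-EV (2504, 1367 and 1507). By unadjusted medians, of -0.59 and -0.49, the 19 carriers and import genes stood as low as the subunits, with 10 and 5 lower. Vdac3, an outer membrane channel, was the lowest with 1688, 827 and 951. Ucp2, an inner membrane carrier of the uncoupling protein family, was the 1 gene 1.5-fold higher, with 4049, 7039 and 5258, in Ocn-EV against All-EV.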

How the data were processed

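Libraries were made from mRNA with the NEBNext Ultra II kit, per the labels' protocols, 1 per group. The submitters' processing notes list the mm10 build, DESeq2 2.11.40.8, featureCounts 2.0.3, HISAT2 2.2.1, Trimmomatic 0.38.1 and FastQC 0.74, without settings. Strand and multiple-match settings: not given in the sources used here. The authors deposited normalised counts (a signal: reads per gene divided by a size factor). All values came out as whole reads at a tolerance of 1e-06 (100%), and depth, intervals and floors of 3 reads use those reads. PCR duplicates are not independent molecules.

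Of 27179 gene identifiers, 25275 matched a RefSeq symbol. Log2 ratios use a pseudocount of 1, and the fold marks use plain ratios. The filter was a mean of at least 50, and the 1.5-fold mark is a size and not a test. An exact binomial test on the recovered reads, adjusted by the Benjamini-Hochberg method at 0.05, called, of 11067 genes, 7177 and 7119 in the comparisons of Ocn-EV and Prx1-EV with All-EV, and 2872 between the former. It compares these libraries, not the conditions. Length and GC content came from the shortest APPRIS-principal GENCODE vM21 transcript. The members, lists and rules were chosen with earlier results of these data known. Named are all mitochondrial genes, members at least 1.5-fold apart, the extremes and the highest level per kilobase of each complex, isoform pairs, core subunits (1 is not reported here), and the extremes of each pathway list with Cycs, Tfam, Nrf1, Ppargc1a, Ppargc1b and Hif1a; of the list extremes, some are given by their list's count only. The scripts (Python 3.11.15, numpy 2.4.6, pandas 2.3.3, scipy 1.17.1, matplotlib 3.10.9) were tested on simulated data.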

Additional observations from a re-analysis of the deposited data

How the results depend on the processing

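No paired analysis was possible because each group has 1 library and the labels carry no replicate numbers; for the same reason no library could be left out. With libraries set to equal totals, the Ocn-EV against All-EV nuclear median was -0.22 with 8 lower and 2 higher at 1.5-fold, and the mitochondrial median 0.15 with 1 lower; in Prx1-EV against All-EV the nuclear median was -0.25 with 11 lower, and the mitochondrial median 0.11. With length and GC trends removed, Ocn-EV had a nuclear median of -0.13 (5 lower, 2 higher) and a mitochondrial median of 0.30 (1 lower, 3 higher), and Prx1-EV -0.11 (5 lower) and 0.27. With the longest transcripts instead, chosen after seeing the data, these were -0.12 (7 lower, 2 higher) and 0.35 (0 lower, 4 higher) in Ocn-EV. In Prx1-EV they were -0.10 (6 lower) and 0.34 (1 higher). Of members at least 1.5-fold apart, Uqcrb (0.013) and Atp5k (0.040) reversed there in Prx1-EV. Of all 88 members at the filter, 26 (Ocn-EV) and 28 (Prx1-EV) changed sign against All-EV with the trends removed. These counts were 27 and 34 with the longest transcripts, and 20 and 21 with equal totals. A mean of at least 10 gave 3 nuclear members higher in Ocn-EV, and in Ocn-EV against Prx1-EV 2 nuclear lower, 1 higher and 1 mitochondrial lower. A mean of at least 200 gave a mitochondrial median of -0.024 with 1 lower in Ocn-EV and 1 nuclear member higher in Prx1-EV. With no filter, 3 nuclear members were higher in Ocn-EV (mitochondrial median -0.024), 5 higher in Prx1-EV with 2 mitochondrial lower, and in Ocn-EV against Prx1-EV 5 nuclear lower and 1 higher, and 1 mitochondrial lower and 1 higher. Leaving out members with at least 50% of windows in another gene, chosen after seeing the data, left 1 mitochondrial gene lower in Ocn-EV. Placing Ndufa4 and Ndufa4l2 in complex IV, also chosen then, moved 4 results of complexes I and IV, all counts of members 1.5-fold higher. The other 14 stayed nearly the same. The added exact binomial test called 7177, 7119 and 2872 genes. Per kilobase, the shares (All-EV, Ocn-EV, Prx1-EV) were 13.6%, 35.6% and 29.9% for Ndufa4l2, 18.7%, 7.56% and 13.3% for Cox6a2, 11.2%, 20.6% and 21.4% for Atp5g1 and 22.5%, 36.5% and 35.01% for Atp5g3. The share of all genes at 1.5-fold was not taken under these settings, so the counts of members here have no background. The cause of these shifts was not tested. Depth limits the genes below the filter: 1 read is worth 0.872 to 1.13 normalised counts.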
